A study of Mus musculus with 17 samples.

Results

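The genes of the synaptic vesicle release machinery were examined in mouse prefrontal cortex by bulk sequencing of polyadenylated RNA. A list of 44 symbols defined them, and each symbol had 1 entry among the 56953 genes of the count table. The list holds 10 calcium sensors of the synaptotagmin and Doc2 families, 6 other synaptotagmins, 5 SNARE proteins, 3 complexins, 6 priming factors, 6 active zone scaffold proteins, 7 proteins of the vesicle membrane or vesicle pool, and Exoc3l, a relative of an exocyst subunit. The rule matches symbols and uses no measured value, but the symbols were chosen with earlier results of these data known. Counts of calls among them are therefore not an independent test. All 44 passed the filter on low counts, which kept 23062 genes.

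The samples came from 5 WT, 6 PS19 and 6 CgA-KO/PS19 mice on a B6C3F1/J background, all 8 months old and fed regular chow. PS19 mice, labelled hTau, carry human Tau with a disease mutation, driven by the Prnp promoter. CgA-KO/PS19 mice carry the same transgene and lack the Chga gene in the whole body from conception. No group had the Chga deletion without the Tau transgene, so the deletion was seen only on the PS19 background. The samples within a genotype are described as biological replicates, and sex is not given beside each library.

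Neurotransmitter is released when calcium enters a presynaptic terminal and a docked vesicle fuses with the membrane. The vesicle SNARE synaptobrevin (Vamp) zips together with syntaxin and Snap25, complexin clamps and then promotes the assembled complex, and a synaptotagmin on the vesicle senses the calcium. Munc13 and CAPS proteins prime the vesicle, while RIM, Bassoon and Piccolo hold it at the active zone beside the calcium channels. Many of these proteins come as paralogue pairs that different neurons use: Syt2, Vamp1 and Cplx1 are known from fast-spiking and hindbrain neurons, and Syt1, Vamp2 and Cplx2 from most forebrain excitatory neurons.

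Levels are CPM, counts scaled to a library's total as adjusted by TMM, the trimmed mean of M-values. Total counts per library were 8838334 to 227651681, and WT replicate 4 was the shallowest, so its values are the least precise. Chga was at 0 counts in all 6 CgA-KO/PS19 libraries, against 152 to 180.1 CPM in WT and 162 to 177 CPM in PS19. Mitochondrial genes took 13.8% to 18.2% of counts in CgA-KO/PS19 replicates 1 to 3 and 2.56% to 10.9% in every other library. PS19 replicates 4 to 6 were more alike than any other pair of 1 genotype, and CgA-KO/PS19 replicates 1 and 3 came next. Both sets differed beyond counting noise (chi-square per degree of freedom at least 47.4 over 3761 genes). That measure cannot tell separate mice from repeat preparations of 1 tissue, so these libraries may share tissue or preparation. They were kept as separate samples, as labelled. In the fits with near-identical libraries averaged, each of the 2 sets was replaced by its mean. The Y-linked gene Ddx3y read 49.8 to 76.8 CPM for replicates 1 to 3 in every genotype and no more than 0.0582 CPM for the others, so replicate number and sex cannot be told apart. Markers of cortical excitatory neurons, 6 genes, summed to 975 to 2288 CPM in WT. Their sum was 1505 to 1764 CPM in PS19 libraries, and CgA-KO/PS19 libraries had 991 to 1643 CPM. The 16 markers of striatum, which lies beneath this cortex, summed to 1302 to 4028 CPM in WT and 303 to 350.3 CPM in PS19, with 15 called lower and Isl1 at 0 in every PS19 library. In CgA-KO/PS19 they summed to 631 to 2556 CPM in replicates 1 to 3 and to 294 to 317 CPM in replicates 4 to 6. Choroid plexus markers summed to 1073 CPM in WT replicate 5 and to at most 13 CPM elsewhere. Because whole tissue was sequenced, fewer cells of a type and less RNA per cell cannot be told apart in any value that follows.

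Per kilobase of exon, the release genes spanned a wide range of levels in WT cortex. Snap25, the plasma membrane SNARE, stood highest at 721 CPM per kb, followed by Cplx2 at 448, Vamp2 at 432, Syn1 at 339, Syp at 294 and Cplx1 at 282 CPM per kb. Syt1, the main fast calcium sensor of the forebrain, stood at 170.2 CPM per kb beside its relative Syt11 at 169.6 CPM per kb. The lowest were Exoc3l at 0.988 CPM per kb and Unc13d, a Munc13 known from immune cells, at 0.126 CPM per kb. Cplx1 reached 440.3 CPM per kb in PS19, a level above that of Cplx2 at 408 CPM per kb, and was back at 272 CPM per kb in CgA-KO/PS19. The scale depends on the annotated exon length, so a small gap between genes in this order carries little weight.

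In PS19 against WT, 12 of the 44 genes passed an adjusted p under 0.05 in edgeR's quasi-likelihood test. Of these, 7 were higher (Syt2, Vamp1, Stx1a, Cplx1, Rims3, Rims4 and Exoc3l) and 5 were lower (Syt9, Syt10, Doc2b, Syt17 and Sv2c). Among all genes tested, 1.95% were called higher and 3.95% lower, 5.9% together. With a filter of at least 10 counts in every library, 15 of 43 release genes and 9.9% of all genes were called. The median log2 fold change was 0.15 over the release genes and 0.01 over all genes tested. In 9 of the 44 genes the lowest PS19 library lay above the highest WT library, and in 4 the highest PS19 library lay below the lowest WT library, against 5.13% and 4.39% of all genes.

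In CgA-KO/PS19 against PS19, 14 of the 44 genes passed the same test, with the opposite balance of directions. Here 2 were higher (Syt10 and Doc2b) and 12 were lower (Syt2, Syt3, Doc2a, Syt11, Syt12, Vamp1, Cplx1, Unc13d, Cadps, Rims3, Sv2a and Exoc3l). Of all genes, 5.5% were called higher and 4.22% lower (9.72% together), and the median log2 fold change was -0.22 over the release genes and 0.03 over all genes. All 6 CgA-KO/PS19 libraries lay below all 6 PS19 libraries for 8 genes and above them for 0 genes, against 3.79% and 2.84% of all genes. The 6 PS19 libraries serve in both comparisons, in which 7 genes were called: Syt2, Vamp1, Cplx1, Rims3 and Exoc3l were highest in PS19, and Syt10 and Doc2b were lowest there. In CgA-KO/PS19 against WT, only 3 of the 44 genes were called, Rims1 higher and Syt9 and Sv2c lower, where 3.56% of all genes were called higher and 2.89% lower (6.46% in either direction). For these genotypes 0 release genes lay fully above and 2 fully below WT, beside 2.06% and 1.54% of all genes.

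**Figure D1:**
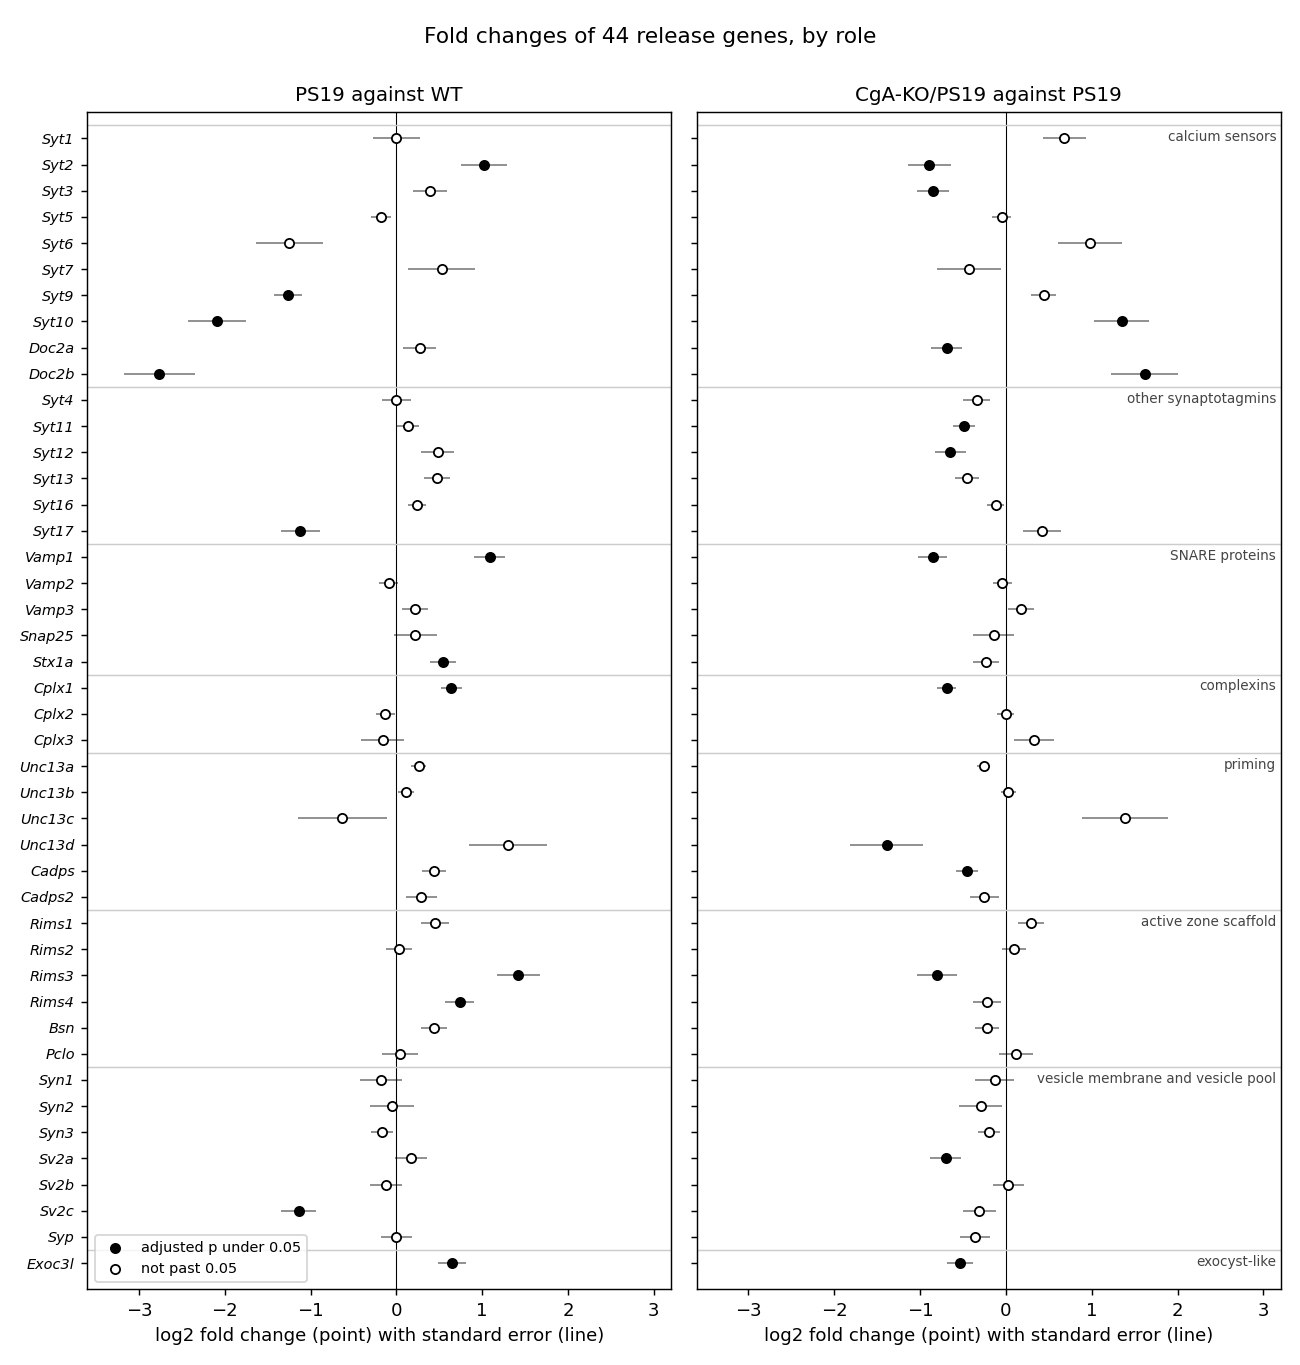
Log2 fold change of each of the 44 release genes, grouped by role, with its standard error, for PS19 against WT (left) and CgA-KO/PS19 against PS19 (right). Filled points passed an adjusted p under 0.05 (12 on the left, 14 on the right), and the paired shifts of Syt2, Vamp1, Cplx1, Rims3, Syt10 and Doc2b in opposite directions can be read across the panels, which share the PS19 libraries.

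With a threshold of p under 0.01 and a log2 fold change beyond 0.5, 8 release genes were higher and 6 lower in PS19 against WT, beside 2.81% and 4.57% of all genes. The same threshold gave 2 higher and 10 lower in CgA-KO/PS19 against PS19, beside 6.3% and 3.44%, and 2 higher and 3 lower in CgA-KO/PS19 against WT, beside 4.66% and 3.09%.

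These calls depended on which libraries entered. In PS19 against WT, 8 of the 12 calls were lost when the striatum marker level of each library was a covariate, and Syt9, Syt10, Rims4 and Exoc3l were kept. In that fit 11 release genes were newly called, with Syt1, Vamp2, Snap25, Syp and Syn1 among them. It called 15 release genes in all, 5 higher and 10 lower, and 17.3% of all genes. All PS19 libraries lie below all WT libraries in that marker level, so the marker level and the Tau transgene cannot be told apart in that fit. In CgA-KO/PS19 against PS19, 1 of the 14 calls (Cplx1) was kept when the near-identical libraries of both genotypes were averaged. With only replicates 4 to 6, 1 was kept (Syt10), and with only replicates 1 to 3, 12 were kept. Of all genes, 0.697%, 0.806% and 31.1% were called in these fits. Cplx1 was also the 1 call kept when CgA-KO/PS19 replicates 1 to 3 were left out together, a fit that called 1.46% of all genes.

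The promoters of Syt2, Vamp1, Cplx1 and Rims3, which are 4 of the 5 genes that were highest in PS19, are shown with the 250 bases before the annotated start from RefSeq on GRCm38.p6, 5′ to 3′ on the strand of the gene. Capitals mark a GC box (GGGCGG or its complement CCGCCC, bound by Sp1 factors) or an estrogen-related receptor half-site (AAGGTCA or its complement TGACCTT).
Syt2, first start, chr1:134646362-134646611, plus strand: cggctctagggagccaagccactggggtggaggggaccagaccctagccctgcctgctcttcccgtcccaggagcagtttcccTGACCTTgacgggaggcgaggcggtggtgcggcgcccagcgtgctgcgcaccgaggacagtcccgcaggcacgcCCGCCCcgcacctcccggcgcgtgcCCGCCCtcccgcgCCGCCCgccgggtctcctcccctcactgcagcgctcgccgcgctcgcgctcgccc
Syt2, second start, chr1:134709050-134709299, plus strand: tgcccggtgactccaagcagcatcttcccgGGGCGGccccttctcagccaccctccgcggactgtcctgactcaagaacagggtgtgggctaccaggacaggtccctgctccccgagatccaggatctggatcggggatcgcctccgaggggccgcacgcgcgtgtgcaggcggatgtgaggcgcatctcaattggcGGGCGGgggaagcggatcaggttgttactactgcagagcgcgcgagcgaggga
Vamp1, chr6:125215331-125215580, plus strand: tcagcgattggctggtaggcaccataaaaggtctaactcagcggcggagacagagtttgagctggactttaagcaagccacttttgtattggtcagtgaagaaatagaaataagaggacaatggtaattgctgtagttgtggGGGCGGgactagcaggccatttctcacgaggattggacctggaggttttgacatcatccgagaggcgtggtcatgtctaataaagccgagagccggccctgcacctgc
Cplx1, chr5:108550028-108550277, minus strand: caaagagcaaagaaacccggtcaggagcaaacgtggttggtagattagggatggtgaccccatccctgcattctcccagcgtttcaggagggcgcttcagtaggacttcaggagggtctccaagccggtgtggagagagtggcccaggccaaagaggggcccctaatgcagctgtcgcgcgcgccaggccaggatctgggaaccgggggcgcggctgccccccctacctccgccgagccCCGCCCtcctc
Rims3, chr4:120854549-120854798, plus strand: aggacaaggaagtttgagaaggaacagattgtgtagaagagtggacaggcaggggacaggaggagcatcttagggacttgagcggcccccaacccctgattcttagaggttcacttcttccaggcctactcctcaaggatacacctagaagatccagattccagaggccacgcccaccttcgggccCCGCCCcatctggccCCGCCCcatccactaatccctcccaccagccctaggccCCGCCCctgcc
Each of the 5 windows held a GC box, and the first Syt2 window also held the receptor half-site. The sequence just after that first Syt2 start matched no GENCODE transcript of Syt2 near its 5′ end, unlike the other windows shown. RefSeq promoter entries were matched by symbol for 28 of the 44 genes, which have 36 windows. Searched on both strands in windows of 300 bases, 250 before and 50 after the start, GGGCGG was in 69.4% of these 36 windows and in 35.7% of all 32851 mouse promoters of the table. AAGGTCA was in 8.33% (windows of Syt2 and Syt6) and in 4.72%. The cyclic AMP response element TGACGTCA was in 1 window, that of Syn1, and in 1.79% of all promoters, and TATAAA was in 5.56% and in 13.6%. The median GC content was 62.5% in the windows of the release genes and 52.7% in all promoters. A match describes the letters in a window and shows no binding.

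Among the SNARE proteins, Vamp1 was the gene that moved most. Vamp1 (chr6:125215551-125245964 in GRCm38), a synaptobrevin, was at 149, 128, 95.7, 119 and 75.5 CPM in the 5 WT libraries. In PS19 its lowest, median and highest values were 185, 243 and 285 CPM, and in CgA-KO/PS19 they were 98.6, 132 and 179.8 CPM. Every PS19 library thus lay above every library of the other genotypes, while WT and CgA-KO/PS19 overlapped. Vamp1 was higher in PS19 than in WT (log2 fold change 1.09, SE 0.18, adjusted p = 0.00187) and lower in CgA-KO/PS19 than in PS19 (log2 fold change -0.85, SE 0.17, adjusted p = 0.00771). With the striatum covariate these log2 fold changes were 0.41 (adjusted p = 0.16) and -0.56 (adjusted p = 0.0292).

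Vamp2, the main synaptobrevin of the forebrain, showed no such step. It was at 1651, 1619, 1522, 1875 and 1563 CPM in WT, at 1466, 1548 and 1634 CPM (lowest, median and highest) in PS19 and at 1226, 1438 and 1850.3 CPM in CgA-KO/PS19. The genotypes overlapped, and the log2 fold changes were -0.09 (SE 0.11, adjusted p = 0.704) in PS19 against WT and -0.04 (SE 0.11, adjusted p = 0.857) in CgA-KO/PS19 against PS19. With the striatum covariate Vamp2 was newly called in PS19 against WT. Within each library, the log2 ratio of Vamp1 to Vamp2 was -4.37 to -3.47 in WT libraries, -3.05 to -2.36 in PS19 libraries and -3.81 to -2.96 in CgA-KO/PS19. The PS19 and WT ratios did not overlap, and 1 CgA-KO/PS19 library reached into the PS19 range.

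Stx1a, a plasma membrane syntaxin, was at 253, 200.1, 158, 158 and 148 CPM in WT and at 255, 264 and 282 CPM (lowest, median and highest) in PS19, where all 6 libraries lay just above the highest WT library. It was higher in PS19 (log2 fold change 0.54, SE 0.15, adjusted p = 0.0461), a call kept in 1 of the 11 fits that left out 1 WT or PS19 library. In CgA-KO/PS19 it was at 182, 189.9 and 183 CPM in replicates 1 to 3 and 287, 292 and 228.2 CPM in replicates 4 to 6, and it did not pass the test against PS19 (log2 fold change -0.23, SE 0.15, adjusted p = 0.317). Snap25 was at 4778, 4505, 3608, 8216 and 3364 CPM in WT, 5124, 5765 and 6046 CPM (lowest, median and highest) in PS19 and 3092, 5042 and 8563 CPM in CgA-KO/PS19. Its highest values in WT and in CgA-KO/PS19 came from 1 library each, WT replicate 4 and CgA-KO/PS19 replicate 6, and its log2 fold changes of 0.22 and -0.14 had adjusted p = 0.669 and 0.738. Vamp3, the synaptobrevin of constitutive recycling, was called in no comparison.

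Among the 3 complexins, Cplx1 was the 1 gene called. Cplx1 (chr5:108518554-108550024) was at 669, 702, 592, 599 and 527 CPM in WT. Its lowest, median and highest values were 866, 974 and 1012 CPM in PS19 and 487, 577 and 761 CPM in CgA-KO/PS19. All 6 PS19 libraries lay above all libraries of the other genotypes. Cplx1 was higher in PS19 than in WT (log2 fold change 0.64, SE 0.12, adjusted p = 0.00338) and lower in CgA-KO/PS19 than in PS19 (log2 fold change -0.69, SE 0.11, adjusted p = 0.00201). With the striatum marker level as a covariate, the first log2 fold change was 0.22 (adjusted p = 0.236) and the second -0.52 (adjusted p = 0.00345).

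Cplx2, the complexin shared by most forebrain neurons, was at 2073, 2169, 2108, 2295 and 2398 CPM in WT. It was at 1902, 2006 and 2140.2 CPM (lowest, median and highest) in PS19 and at 1695, 1926 and 2474 CPM in CgA-KO/PS19. The genotypes overlapped, and its log2 fold changes were -0.13 (SE 0.11, adjusted p = 0.518) and 0.00 (SE 0.10, adjusted p = 0.988). The log2 ratio of Cplx1 to Cplx2 was -2.19 to -1.63 in WT libraries, -1.13 to -0.94 in PS19 libraries and -2.30 to -1.34 in CgA-KO/PS19, with the PS19 ratios apart from both. Cplx3, a complexin of ribbon synapses and of a few cortical neurons, passed no test.

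**Figure D2:**
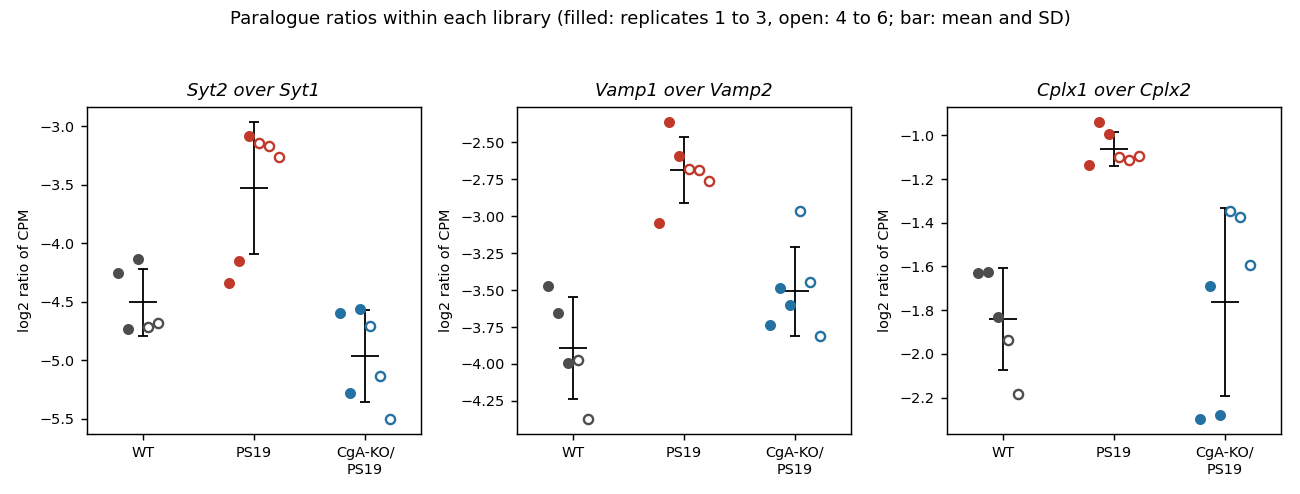
Log2 ratio of the CPM of paralogue pairs within each library, as points by genotype with the mean and SD (filled points are replicates 1 to 3, open points 4 to 6). For Vamp1 over Vamp2 and Cplx1 over Cplx2, the 6 PS19 libraries lie above all 5 WT libraries, and for Syt2 over Syt1 the PS19 replicates 1 and 2 lie near WT.

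Calcium sensors changed in both directions. In PS19 against WT, 1 of the 10 was called higher and 3 lower, beside 1.95% and 3.95% of all genes. In CgA-KO/PS19 against PS19, 2 were called higher and 3 lower, beside 5.5% and 4.22%. Syt2 (chr1:134646677-134762593), the fast sensor of parvalbumin interneurons and hindbrain neurons, was at 84.6, 48.9, 70.3, 64.2 and 48.8 CPM in WT. PS19 replicates 1 to 6 were at 77.1, 84.5, 168, 147, 149 and 144 CPM, so that replicates 1 and 2 lay in or at the edge of the WT range and the other 4 well above it. In CgA-KO/PS19 Syt2 was at 42.9, 50.6 and 43.5 CPM in replicates 1 to 3 and 108, 91.2 and 79.7 CPM in replicates 4 to 6. It was higher in PS19 than in WT (log2 fold change 1.02, SE 0.27, adjusted p = 0.0315) and lower in CgA-KO/PS19 than in PS19 (log2 fold change -0.89, SE 0.25, adjusted p = 0.0354). The first call was kept in 4 of 11 and the second in 5 of 12 fits that left out 1 library of the comparison. With only replicates 1 to 3 the log2 fold change in PS19 against WT was 0.69 (adjusted p = 0.295), and with only replicates 4 to 6 it was 1.41 (adjusted p = 0.00553).

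Syt1 did not follow Syt2. It was at 1614, 1302, 1237, 1690.2 and 1252 CPM in WT and at 1302, 1404 and 1564 CPM (lowest, median and highest) in PS19, a log2 fold change of 0.00 (SE 0.27, adjusted p = 1). In CgA-KO/PS19 it was at 1039, 1961 and 1028 CPM in replicates 1 to 3 and 2826, 3198 and 3609 CPM in replicates 4 to 6, and the spread between these libraries was far wider than in the other genotypes. The comparison of CgA-KO/PS19 with PS19 over all libraries was not called (log2 fold change 0.68, SE 0.25, adjusted p = 0.0926). With only replicates 4 to 6 of each genotype, Syt1 was called higher in CgA-KO/PS19 (log2 fold change 1.24). With the striatum covariate Syt1 was newly called in PS19 against WT. The log2 ratio of Syt2 to Syt1 was -4.73 to -4.14 in WT libraries, -4.34 to -3.08 in PS19 libraries and -5.50 to -4.56 in CgA-KO/PS19.

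Syt10 and Doc2b were the release genes with the deepest fall in PS19. Syt10 (chr15:89782393-89841860), a calcium sensor known from olfactory bulb neurons, was at 12.4, 12.6, 15.4, 19.6 and 20.2 CPM in WT. In PS19 it was at 9.73 CPM in replicate 1 and at 2.25 to 3.31 CPM in the other 5 libraries, all below WT. The CgA-KO/PS19 libraries read 10.8, 8.81 and 9.61 CPM in replicates 1 to 3 and 6.3, 9.22 and 12.8 CPM in replicates 4 to 6, with 4 inside the PS19 range, 1 inside the WT range and 1 between them. Syt10 was lower in PS19 than in WT (log2 fold change -2.09, SE 0.34, adjusted p = 0.00142) and, against PS19, higher in CgA-KO/PS19 (log2 fold change 1.35, SE 0.32, adjusted p = 0.0167). These are the calls with the striatum covariate too, at log2 fold changes of -1.93 (adjusted p = 0.0231) and 1.28 (adjusted p = 0.0476). With only replicates 1 to 3 both calls were lost, at -1.4 (adjusted p = 0.16) and 0.94 (adjusted p = 0.121). The second was also lost with near-identical libraries averaged and without CgA-KO/PS19 replicates 1 to 3.

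Doc2b (chr11:75768966-75796049), a soluble sensor of asynchronous and spontaneous release, was at 43.7, 68.8, 73.4, 46 and 131 CPM in WT and at 7.68, 11.2 and 13.3 CPM (lowest, median and highest) in PS19. Here no PS19 library came near the WT range. In CgA-KO/PS19 it was at 66.1, 19.8 and 61.8 CPM in replicates 1 to 3 and 19, 18.3 and 12.5 CPM in replicates 4 to 6. The near-identical replicates 1 and 3 thus reached WT levels, and the others lay closer to PS19. Doc2b was lower in PS19 than in WT (log2 fold change -2.76, SE 0.41, adjusted p = 0.000816) and, against PS19, higher in CgA-KO/PS19 (log2 fold change 1.62, SE 0.39, adjusted p = 0.0176). Both calls were lost with the striatum covariate (log2 fold changes -0.87, adjusted p = 0.0592, and 0.52, adjusted p = 0.118), and with only replicates 4 to 6 the second was 0.51 (adjusted p = 0.534).

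Syt9 (chr7:107370728-107548656), a fast sensor known from striatal and limbic neurons, was at 12.8, 15.2, 20.3, 13 and 23.5 CPM in WT, 6.59, 6.98 and 8.25 CPM (lowest, median and highest) in PS19 and 7.39, 10.2 and 10.9 CPM in CgA-KO/PS19. All PS19 and all CgA-KO/PS19 libraries lay below the lowest WT library. Syt9 was lower in PS19 than in WT (log2 fold change -1.26, SE 0.16, adjusted p = 0.00025) and in CgA-KO/PS19 than in WT (log2 fold change -0.82, SE 0.16, adjusted p = 0.00588), and its difference between CgA-KO/PS19 and PS19 was not called (log2 fold change 0.44, SE 0.15, adjusted p = 0.067). In PS19 against WT it was called in all 13 alternative analyses and in all 11 fits that left out 1 library, at -0.85 (adjusted p = 0.0175) with the striatum covariate.

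Syt3, a sensor with high calcium affinity, was at 37.5, 36, 36.3, 18.9 and 35.5 CPM in WT and at 38.6, 43.2 and 49.8 CPM (lowest, median and highest) in PS19, and its difference between them did not pass the test (adjusted p = 0.274). In CgA-KO/PS19 it was at 15.9, 22.2 and 37.3 CPM, with every library below every PS19 library (log2 fold change -0.85, SE 0.19, adjusted p = 0.0125). Doc2a, the Doc2 form of glutamatergic neurons, was at 20.9, 15.1, 13.9, 9.7 and 13.3 CPM in WT, 15.9, 17.1 and 20.7 CPM (lowest, median and highest) in PS19 and 8.92, 8.69 and 7.98 CPM in replicates 1 to 3 and 15.7, 13.7 and 10.4 CPM in replicates 4 to 6 of CgA-KO/PS19. It was lower in CgA-KO/PS19 than in PS19 (log2 fold change -0.69, SE 0.18, adjusted p = 0.0236). Of its exonic bases, 39.4% overlap Ino80e on the other strand, and since the strand setting of the counting is not stated its level is uncertain. Syt5 and Syt6 were called in no comparison. Syt6, at 16, 10.4, 30.9, 21 and 48.5 CPM in WT and 4.77, 10.3 and 19.6 CPM (lowest, median and highest) in PS19, had a log2 fold change of -1.25 (SE 0.39, adjusted p = 0.0662).

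Syt7, the sensor of asynchronous release and facilitation, fell into separate levels that did not follow genotype. It was at 107 to 116 CPM in WT replicates 2 and 4 and CgA-KO/PS19 replicates 5 and 6, and at 354 to 431 CPM in the other 13 libraries, PS19 replicates 1 to 6 among them. No library lay between. Its log2 fold changes were 0.53 (SE 0.39, adjusted p = 0.476) in PS19 against WT and -0.43 (SE 0.37, adjusted p = 0.47) in CgA-KO/PS19 against PS19. Its exons overlap Gm26859 on the other strand over 5.13% of their length, and what separates these libraries was not tested.

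**Figure D3:**
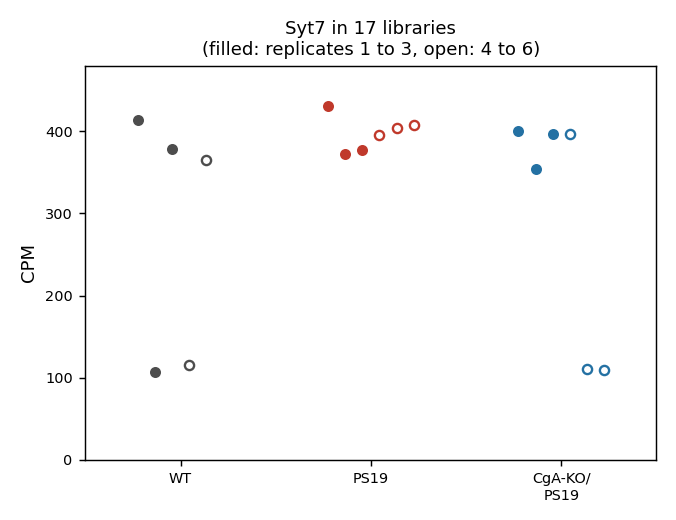
Syt7 level in CPM in each of the 17 libraries by genotype (filled points are replicates 1 to 3, open points 4 to 6). WT replicates 2 and 4 and CgA-KO/PS19 replicates 5 and 6 lie at 107 to 116 CPM and the other 13 libraries at 354 to 431 CPM.

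Of the 6 synaptotagmins that bind no calcium, or for which a calcium role is not established, 1 (Syt17) was called lower in PS19 than in WT, where 3.95% of all genes were, and 2 (Syt11 and Syt12) were called lower in CgA-KO/PS19 against PS19, where 4.22% of all genes were. Syt17 (chr7:118380717-118448222) was at 60.1, 87.8, 56.1, 40.3 and 102 CPM in WT, 21.9, 31.1 and 46.9 CPM (lowest, median and highest) in PS19 and 33.6, 44 and 50.9 CPM in CgA-KO/PS19, and was lower in PS19 than in WT (log2 fold change -1.12, SE 0.23, adjusted p = 0.00648) although the ranges overlapped. Syt11, which restrains vesicle endocytosis, was at 944, 903, 924, 742 and 900.0 CPM in WT and 922, 961 and 1007 CPM (lowest, median and highest) in PS19, and at 556, 528 and 569 CPM in replicates 1 to 3 and 887, 840.5 and 748 CPM in replicates 4 to 6 of CgA-KO/PS19. All 6 CgA-KO/PS19 libraries lay below PS19, replicates 1 to 3 by far the most (log2 fold change -0.49, SE 0.13, adjusted p = 0.0233).

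Syt12 was at 46.9, 41.5, 46.1, 20.3 and 33.5 CPM in WT, 48.8, 50.9 and 63.7 CPM (lowest, median and highest) in PS19 and 28.2, 25 and 29.2 CPM in replicates 1 to 3 and 48.1, 39.6 and 32.1 CPM in replicates 4 to 6 of CgA-KO/PS19. It was lower in CgA-KO/PS19 than in PS19 (log2 fold change -0.65, SE 0.18, adjusted p = 0.0338), a call kept in 2 of 12 fits that left out 1 library, and 17.2% of its exonic bases overlap another gene on the opposite strand. Syt4, Syt13 and Syt16 were called in no comparison, and Syt13 came nearest, with a log2 fold change of 0.47 (adjusted p = 0.0803) in PS19 against WT and -0.45 (adjusted p = 0.0552) in CgA-KO/PS19 against PS19.

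**Figure D4:**
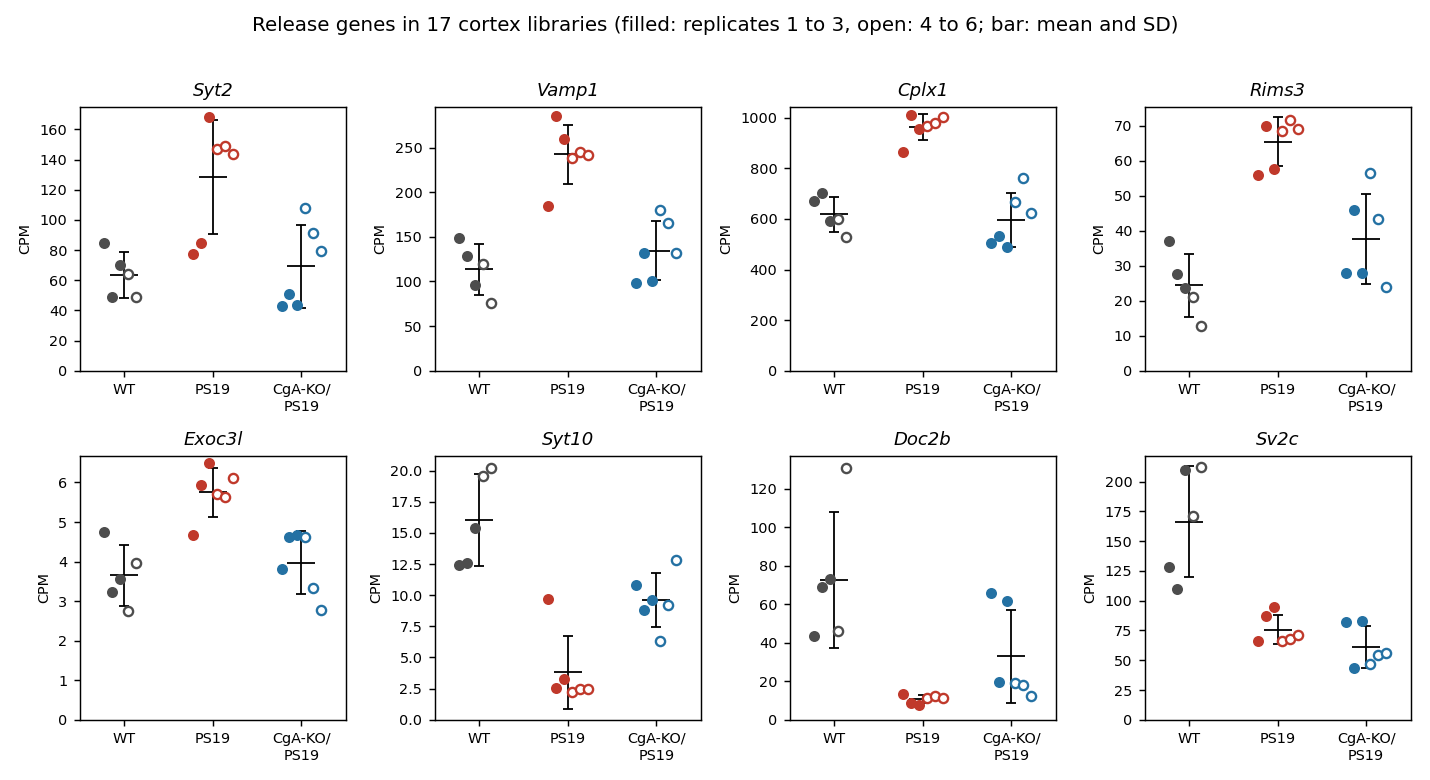
Levels in CPM of 8 release genes in each library by genotype, with the mean and SD (filled points are replicates 1 to 3, open points 4 to 6; each axis starts at 0). Syt2, Vamp1, Cplx1, Rims3 and Exoc3l were highest in PS19, Syt10 and Doc2b were lowest there, and Sv2c was lower in both transgenic genotypes than in WT.

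At the active zone, the small RIM proteins stood out. Rims3 (chr4:120854816-120896579), a short gamma-RIM that lacks the domains binding Rab3 and Munc13, was at 37, 27.7, 23.5, 21 and 12.7 CPM in WT. It was at 55.9, 68.8 and 71.7 CPM (lowest, median and highest) in PS19, with every library above WT, and at 27.9, 46 and 28 CPM in replicates 1 to 3 and 56.5, 43.3 and 23.9 CPM in replicates 4 to 6 of CgA-KO/PS19. Rims3 was higher in PS19 than in WT (log2 fold change 1.42, SE 0.25, adjusted p = 0.00224) and lower in CgA-KO/PS19 than in PS19 (log2 fold change -0.80, SE 0.23, adjusted p = 0.0353). The second call was kept in 3 of 12 fits that left out 1 library, and with the striatum covariate the log2 fold changes were 0.82 (adjusted p = 0.114) and -0.54 (adjusted p = 0.165). Rims4, the other gamma-RIM, was at 93.6, 97.7, 89.5, 48.9 and 69.3 CPM in WT, 109, 136 and 149 CPM (lowest, median and highest) in PS19 and 73.3, 120.5 and 130.4 CPM in CgA-KO/PS19. It was higher in PS19 than in WT (log2 fold change 0.74, SE 0.17, adjusted p = 0.0165) with no overlap, and its difference between CgA-KO/PS19 and PS19 was not called (log2 fold change -0.22, SE 0.16, adjusted p = 0.389).

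Rims1, the long RIM that links vesicles to calcium channels, was at 252, 232, 191, 251 and 179 CPM in WT, 237, 313 and 332 CPM (lowest, median and highest) in PS19 and 385, 529.5 and 369.7 CPM in replicates 1 to 3 and 247, 298 and 385 CPM in replicates 4 to 6 of CgA-KO/PS19. Against WT it was higher in CgA-KO/PS19 (log2 fold change 0.74, SE 0.16, adjusted p = 0.012), where 1 library lay inside the WT range, and was not called in PS19 against WT (log2 fold change 0.45, SE 0.16, adjusted p = 0.116). The CgA-KO/PS19 call was kept in all 11 fits that left out 1 library. It was lost with only the 2 genotypes compared and with the replicate number as a block (adjusted p = 0.0559). It was also lost without CgA-KO/PS19 replicates 1 to 3 and with only replicates 4 to 6 (log2 fold change 0.54, adjusted p = 0.238). Of the 6 scaffold genes, 2 were called higher in PS19 against WT, beside 1.95% of all genes. All 6 had a fitted log2 fold change above 0 there, from 0.03 for Rims2 to 1.42 for Rims3. The largest scaffolds, Bsn and Pclo, had values of 0.44 (adjusted p = 0.0975) and 0.04 (adjusted p = 0.944).

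Of the 6 priming factors, edgeR called 0 in PS19 against WT at an adjusted p under 0.05, with 3 at an unadjusted p under 0.05. It called 5.9% of all genes. DESeq2 and limma voom each called 3 of the 6, beside 5.99% and 17.2% of all genes. In edgeR, 2 were called lower in CgA-KO/PS19 than in PS19, beside 4.22% of all genes. Cadps (CAPS1), which primes dense-core and synaptic vesicles, was at 273, 221, 226, 214 and 192 CPM in WT, 269.9, 282 and 382 CPM (lowest, median and highest) in PS19 and 173, 223 and 173 CPM in replicates 1 to 3 and 271, 256 and 243 CPM in replicates 4 to 6 of CgA-KO/PS19. It was lower in CgA-KO/PS19 than in PS19 (log2 fold change -0.45, SE 0.13, adjusted p = 0.0384), although 1 CgA-KO/PS19 library lay inside the PS19 range. Unc13d was at 0.521, 1.03, 0.883, 0 and 0.521 CPM in WT, 0.983, 1.55 and 2.21 CPM (lowest, median and highest) in PS19 and 0.25, 0.513 and 1.3 CPM in CgA-KO/PS19. At these levels, where 3 fragments correspond to 9 deposited counts, its call in CgA-KO/PS19 against PS19 (log2 fold change -1.39, SE 0.42, adjusted p = 0.0434) was kept in 1 of 12 fits that left out 1 library.

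Unc13a, the principal Munc13 of the forebrain, was not called, with log2 fold changes of 0.26 (adjusted p = 0.0897) and -0.26 (adjusted p = 0.0545). Unc13c, the Munc13 of cerebellar granule cells, was at 25, 36.4, 58.3, 59 and 72.4 CPM in WT and 19.9, 32.8 and 41.4 CPM (lowest, median and highest) in PS19. The CgA-KO/PS19 values were 189, 62.5 and 188 CPM in replicates 1 to 3 and 22.5, 23.4 and 24.7 CPM in replicates 4 to 6. The near-identical replicates 1 and 3 lay above every WT and PS19 library. Replicate 2 lay inside the WT range and replicates 4 to 6 inside the PS19 range. The comparison with PS19 was not called (log2 fold change 1.39, SE 0.50, adjusted p = 0.0839). Unc13b and Cadps2 passed no test.

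On the vesicle itself, Sv2c (chr13:95954594-96132577), the Sv2 form of the basal ganglia and of some interneurons, was lower in both transgenic genotypes. It was at 128, 109.7, 210.2, 171 and 212 CPM in WT, 66, 69.8 and 95 CPM (lowest, median and highest) in PS19 and 43.6, 55.4 and 83 CPM in CgA-KO/PS19. All 12 transgenic libraries lay below all 5 WT libraries. Sv2c was lower in PS19 than in WT (log2 fold change -1.14, SE 0.20, adjusted p = 0.00246) and in CgA-KO/PS19 than in WT (log2 fold change -1.45, SE 0.20, adjusted p = 0.000648), and its difference between CgA-KO/PS19 and PS19 was not called (log2 fold change -0.31, SE 0.19, adjusted p = 0.305). With the striatum covariate the first was -0.43 (adjusted p = 0.238) and the second -1.07 (adjusted p = 0.00105). Sv2a, the form found at nearly all synapses, was at 698, 609.8, 652, 481 and 622 CPM in WT, 646, 681 and 745 CPM (lowest, median and highest) in PS19 and 304, 269 and 318 CPM in replicates 1 to 3 and 641, 557 and 450.5 CPM in replicates 4 to 6 of CgA-KO/PS19. All 6 CgA-KO/PS19 libraries lay below PS19 (log2 fold change -0.70, SE 0.18, adjusted p = 0.023).

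The abundant vesicle genes Syp and Syn1 spread widely among the CgA-KO/PS19 libraries. Syp (synaptophysin) was at 1665, 1576, 1358, 1489.6 and 1569.5 CPM in WT and 1477, 1524 and 1609 CPM (lowest, median and highest) in PS19. The CgA-KO/PS19 libraries split, at 792, 909 and 786 CPM in replicates 1 to 3 and 1534, 1626 and 1516 CPM in replicates 4 to 6, and the latter lay within the WT range. Over all libraries the log2 fold change against PS19 was -0.36 (SE 0.17, adjusted p = 0.177). Syn1 (synapsin I), which tethers the reserve pool, was at 1074, 1013, 842, 1709 and 953 CPM in WT, 925, 970.0 and 1088 CPM (lowest, median and highest) in PS19 and 552, 799.9 and 499.7 CPM in replicates 1 to 3 and 845, 1241 and 1472 CPM in replicates 4 to 6 of CgA-KO/PS19, and was not called (adjusted p = 0.713 and 0.762). Syn2, Syn3 and Sv2b were called in no comparison either.

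Exoc3l was at 4.74, 3.23, 3.56, 2.74 and 3.97 CPM in WT, 4.66, 5.82 and 6.48 CPM (lowest, median and highest) in PS19 and 2.77, 4.22 and 4.66 CPM in CgA-KO/PS19. It was higher in PS19 than in WT (log2 fold change 0.65, SE 0.16, adjusted p = 0.0262) with 1 PS19 library inside the WT range, and lower in CgA-KO/PS19 than in PS19 (log2 fold change -0.53, SE 0.15, adjusted p = 0.0373). The calls were kept in 5 of 11 and 3 of 12 fits that left out 1 library, and 14.4% of its exonic bases overlap Gm20163 on the other strand.

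The 6 CgA-KO/PS19 libraries did not form 1 group for these genes. Replicates 1 to 3 all lay below replicates 4 to 6 for 17 of the 44 genes and above them for 3 (Doc2b, Vamp3 and Unc13c), where 17% of all genes lay below and 18.2% above. In PS19 the same division put 5 release genes below and 8 above (12.7% and 12.1% of all genes), and in WT, 3 below and 11 above (10.4% and 14.8%). As the ratio of mean CPM in replicates 1 to 3 over replicates 4 to 6 of CgA-KO/PS19, Syt1 was at 0.418, Syn1 at 0.52, Syp at 0.532, Sv2a at 0.54 and Syt4 at 0.555. In the other direction Doc2b stood at 2.96 and Unc13c at 6.24.

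**Figure D5:**
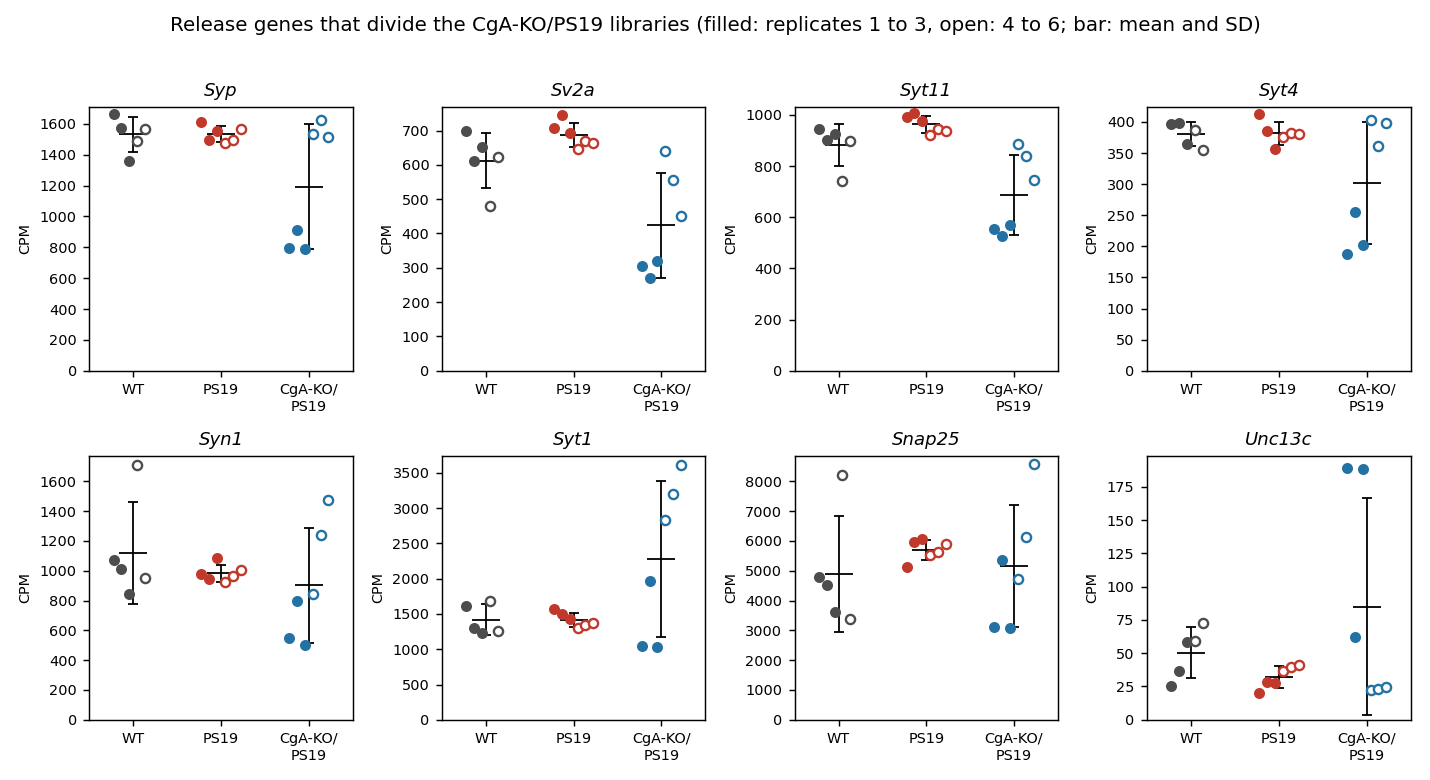
Levels in CPM of 8 release genes in each library by genotype, with the mean and SD (filled points are replicates 1 to 3, open points 4 to 6; each axis starts at 0). CgA-KO/PS19 replicates 1 to 3 lie below replicates 4 to 6 for Syp, Sv2a, Syt11, Syt4, Syn1 and Syt1 and above them for Unc13c.

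With only replicates 1 to 3 of each genotype, 22 of the 44 genes and 31.1% of all genes were called in CgA-KO/PS19 against PS19, with log2 fold changes of -0.89 for Syp, -0.69 for Syn1 and -1.25 for Sv2a. With only replicates 4 to 6, 3 were called, Syt1 (1.24), Syt10 (1.95) and Unc13c, beside 0.806% of all genes. With all PS19 and WT libraries but without CgA-KO/PS19 replicates 1 to 3, 2 were called, Syt1 (1.17) and Cplx1 (-0.51), beside 1.46% of all genes. The libraries labelled replicates 1 to 3 of CgA-KO/PS19 also had the highest mitochondrial share, a striatum marker sum of 631 to 2556 CPM against 294 to 317 CPM in replicates 4 to 6, an oligodendrocyte marker sum of 2513 to 2943 CPM against 1507 to 1608 CPM, and an excitatory neuron marker sum of 991 to 1422 CPM against 1485 to 1643 CPM. The Y-linked gene Ddx3y marked replicates 1 to 3 in every genotype, so sex cannot be told apart from this division. The part of these features in the levels of the release genes was not tested.

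Parvalbumin interneurons are cortical cells that use Syt2, Vamp1 and Cplx1. The summed level of their markers was 305 to 433 CPM for WT, 524 to 582 CPM for PS19 and 253 to 457 CPM for CgA-KO/PS19, so that the PS19 libraries lay apart from both. Of the 7 markers, 2 (Pvalb and Kcns3) were called higher in PS19 than in WT and 4 (Pvalb, Kcnc1, Kcns3 and Acan) lower in CgA-KO/PS19 than in PS19, and none was at 0 in every library of a genotype. The shares of all genes called in these directions were 1.95% and 4.22%. Fitted log2 fold changes of the 7 in PS19 against WT were above 0 for 5 and below 0 for 2, from -0.44 to 1.37. The 6 markers of GABAergic neurons as a whole summed to 1121 to 1407 CPM for WT, 975 to 1159.7 CPM for PS19 and 541 to 1029.6 CPM for CgA-KO/PS19. Of these, 1 was called lower in PS19 than in WT (Gad2) and 1 lower in CgA-KO/PS19 against PS19 (Gad1), beside 3.95% and 4.22% of all genes. Upper layer markers, 6 genes, summed to 773 to 1120 CPM for WT, 1165 to 1348 CPM for PS19 and 675 to 1217 CPM for CgA-KO/PS19, and 6 deep layer markers to 348 to 598 CPM, 197 to 320.0 CPM and 246 to 371 CPM. The part of these markers in the results was not tested.

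The other genes of release and of the vesicle cycle made a list of 100 symbols of which 95 were tested. In PS19 against WT, 1 was called higher and 8 lower, beside 1.95% and 3.95% of all genes, and in CgA-KO/PS19 against PS19, 9 were higher and 13 lower, beside 5.5% and 4.22%. Of the 11 exocyst genes tested, 2 were called lower in CgA-KO/PS19 than in PS19.

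Called in both comparisons were Otof, Synpr, Sh3gl3, Rab3b and Slc17a8. Otof (otoferlin), a calcium sensor known from inner hair cells, had 28.4 to 66 CPM in the WT libraries, 10.3 to 18.8 CPM in the PS19 libraries and 21.4 to 34.8 CPM in the CgA-KO/PS19 libraries, with log2 fold changes of -1.51 (adjusted p = 0.000537) and 0.95 (adjusted p = 0.00978). Synpr (synaptoporin), a relative of synaptophysin, was at -1.15 (adjusted p = 0.0165) and 1.08 (adjusted p = 0.0176) on the same log2 scale. Sh3gl3, an endophilin, was at -0.66 (adjusted p = 0.00557) and 0.67 (adjusted p = 0.0057), and Rab3b, a vesicle Rab, at -0.43 (adjusted p = 0.0498) and 0.51 (adjusted p = 0.0162). These 4 were lowest in PS19, as Syt10 and Doc2b were. Slc17a8, the vesicular glutamate transporter VGLUT3, was lower at each step, at -0.67 (adjusted p = 0.0357) and -0.75 (adjusted p = 0.0156).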

How the data were processed

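Per the labels, the sequenced material was polyadenylated RNA of prefrontal cortex, in paired-end libraries. The authors checked reads with FastQC, trimmed them with Trimmomatic 0.39, mapped them to mm10 with STAR 2.7.10b, quantified them with StringTie 1.3.6 and deposited whole-number counts per gene from prepDE. Low counts peak at 3 and 6, so about 3 deposited counts stand for 1 fragment. The annotation release and the strand setting are not given in the sources used here.

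Samples were grouped by the labelled genotype. The deposited counts were analysed with edgeR 4.0.16 in R 4.3.3, with TMM library sizes, filterByExpr by genotype, 1 mean per genotype over all 17 libraries and Benjamini-Hochberg adjustment over 23062 genes in two-sided quasi-likelihood tests. A call is an adjusted p under 0.05. The method recovered all 200 changed genes of simulated counts. The planted changes were larger than most called here, lay in well-expressed genes and had no split between replicates. Recovery there does not measure how smaller changes are found. DESeq2 1.42.0, limma 3.58.1 voom, other filters and scalings, covariates, averaged or omitted libraries and a replicate block were alternatives. The fits on replicates 1 to 3, on replicates 4 to 6, and without CgA-KO/PS19 replicates 1 to 3 were chosen after seeing the data.

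The members and the other lists were chosen with earlier results of these data known. Every member with a call in at least 1 comparison, and Syt1, Vamp2, Cplx2, Snap25, Stx1a, Syp and Syn1, were described in full, and at most 6 other genes called in both comparisons with PS19 were named. Syt6, Syt7, Syt13, Unc13a, Unc13c, Bsn and Pclo were described after their values were seen. Coordinates and exonic lengths come from GENCODE M21 on GRCm38, matched by identifier for 44 of 44 members. Exons of 16 members overlap another gene. P-values weigh a difference between genotype means against the spread of samples within genotypes. In the main fit that spread is estimated over all 17 libraries together, although it differed between genotypes.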

Additional observations from a re-analysis of the deposited data

Results flagged for a closer look

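In 78 checks, each of 1 gene in 1 genotype, 8 values stood far from the others of their genotype. About 3.9 would by chance if the checks were independent, but they share the same 17 libraries. Several of the values came from the same library. In WT replicate 4, the shallowest library, Syt3 was at 18.9 CPM against 35.5 to 37.5 CPM in the other WT libraries, Syt11 at 742 CPM against 900.0 to 945 CPM, and Syn1 at 1709 CPM against 842 to 1074 CPM. In PS19 replicate 1, Syt10 was at 9.73 CPM against 2.25 to 3.31 CPM in the other PS19 libraries, and Cplx1 at 866 CPM against 957 to 1012 CPM. Syt12 was at 63.7 CPM in PS19 replicate 2 against 48.8 to 52.6 CPM, and Syt9 at 8.25 CPM in PS19 replicate 3 against 6.59 to 7.16 CPM. Rims4 was at 73.3 CPM in CgA-KO/PS19 replicate 6 against 112 to 130.4 CPM in the other CgA-KO/PS19 libraries.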

How the results depend on the processing

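No call changed direction under any alternative, and of the fold changes described in full over the alternatives set out first, 916 kept their side of the threshold, 41 newly passed it and 54 no longer passed. Of the release genes, 12 were called in PS19 against WT, 14 in CgA-KO/PS19 against PS19 and 3 in CgA-KO/PS19 against WT, beside 5.9%, 9.72% and 6.46% of all genes. These counts became 19, 20 and 10 with limma voom (17.2%, 22.7% and 10.7% of all genes). DESeq2 gave 7 in CgA-KO/PS19 against WT (6.56%). The striatum covariate gave 15, 7 and 18 (17.3%, 5.89% and 22.1%). Averaging near-identical libraries gave 8, 1 and 3 (1.92%, 0.697% and 2.58%). With only replicates 1 to 3 they were 3, 22 and 18 (0.592%, 31.1% and 20.7%), with only replicates 4 to 6 they were 14, 3 and 5 (5.81%, 0.806% and 3.05%), and without CgA-KO/PS19 replicates 1 to 3 they were 16, 2 and 5 (9.21%, 1.46% and 4.16%). The Methods threshold gave 5 in CgA-KO/PS19 against WT (7.75%). Leaving out 1 library gave 8 to 14, 5 to 17 and 3 to 6.

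For the other release and vesicle genes the counts were 9, 22 and 4. They became 16 and 11 with DESeq2 in the first and last comparison, 24, 44 and 14 with voom, 29, 7 and 40 with the striatum covariate, 1, 0 and 1 with averaged libraries, 0, 50 and 43 with only replicates 1 to 3, and 1 and 2 with only replicates 4 to 6 in the last pair of comparisons. Behind the counts of 0, edgeR gave 30 genes (averaged libraries) and 23 genes (only replicates 1 to 3) at an unadjusted p under 0.05. In CgA-KO/PS19 against PS19, no filter on low counts gave 14 and omitting CgA-KO/PS19 replicates 1 to 3 gave 1, and a fit of only the 2 genotypes gave 1 in CgA-KO/PS19 against WT. Leaving out 1 library gave 4 to 10, 7 to 30 and 1 to 11. The causes were not tested.

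With the replicate number as a block, the counts of release genes were 8, 3 and 2 and of the other genes 4, 5 and 2. Deviations of same-numbered libraries correlated at -0.232 to 0.437 (median -0.04 over 16 pairs), 3 libraries correlated best with their own number, and the numbers were not taken as pairs. Depth limits the genes near the floor of 9 counts, such as Unc13d.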
